A study of Mus musculus with 4 samples.

Results

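The ribosomal protein genes measured here are the probe sets whose single gene symbol in the platform annotation begins with Rpl or Rps followed by a digit or with Rplp. Names beginning with Rps6k, which are kinases, and numbered pseudogenes (-ps plus digits) were left out. The rule reads names only and no measured value, but it was chosen with earlier results of these data known. It gave 56 of 13057 non-control probe sets, for 45 genes: 38 of 6523 probe sets on the first array type and 18 of 6534 on the second, which the sample titles mark MB. Of the 45 genes, 31 carry large subunit names (Rpl, Rplp) and 14 small subunit names (Rps). The rule also took 6 names outside the core ribosome, namely the paralogues Rpl22l1, Rpl39l and Rps27l, the copy Rpl32l, and Rps4l and Rpl32-ps, which RefSeq lists as pseudogenes. A further 23 probe sets of the first type and 1 of the MB type carry such a symbol among several and are not members.

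The cells were NIH3T3, an immortalised mouse fibroblast line, as a stable line with wild-type PKR (wtPKR) under a promoter that tetracycline represses. Both groups carry that construct. The control cultures grew in DMEM with 5% FCS and 1 µg/ml tetracycline. In the other cultures tetracycline was withdrawn for 5 h to induce PKR, and their serum content is not stated. Whether the line is 1 clone, and whether both array types received the same RNA, is not stated either. Total RNA was hybridised to 1 array of each type per condition, so that no difference below has a replicate, no test was possible and the number of arrays limits the precision. Intensities are given in the order tetracycline, withdrawn, and each change is the log2 ratio of the second to the first on 1 array type. Fewer cells and less RNA per cell cannot be told apart in such bulk RNA.

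A ribosome consists of a small subunit, which holds the mRNA and matches codons to transfer RNAs, and a large subunit, which joins amino acids and passes the new chain through an exit tunnel. Their proteins are made from some of the most abundant mRNAs of a growing fibroblast, and most of these mRNAs start with a 5' terminal oligopyrimidine tract (TOP), which lets growth signals control their translation together. PKR, encoded by Eif2ak2, phosphorylates the initiation factor eIF2 alpha when double-stranded RNA activates it, which lowers translation initiation. The comparison shows how the amounts of these mRNAs differed after tetracycline was withdrawn to induce PKR. No line without the construct was arrayed. Effects of PKR therefore cannot be told apart from those of tetracycline removal or of any difference in medium or serum.

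Of the fibroblast markers, 10 of 11 genes on the arrays were measured, among them Col1a1, Col1a2, Vim and Sparc. Of the 10 measured, 7 were lower after withdrawal (median log2 -0.19), beside 50.4% of all measured genes. Fn1 (0.076), Dcn (0.35) and Pdgfrb (0.51) were higher. Leukocyte, epithelial and endothelial markers were measured for 4 of 8, 2 of 5 and 2 of 5 genes, with medians of 0.16, 0.36 and -0.84. Their median mean intensities were 594, 362 and 302. The epithelial median joins Krt8 (-0.42) and Krt14 (1.15), and the endothelial one Kdr (0.48) and Tie1 (-2.16), so that neither gives a common direction. All 6 muscle markers were measured, with a median of -0.22, but their median mean intensity was 286, beside 16079 for the fibroblast markers. The markers Cd68, Csf1r, Epcam, Cdh1, Pecam1 and Cdh5 were not measured in both conditions. Others were, among them the leukocyte markers Ptprc (710.1 and 363.9), Cd3e (638.9 and 753.3) and Cd14 (3222.2 and 3425.7, in the brightest 10%). The part of these markers in the results was not tested. The only Eif2ak2 probe set read 643.3 with tetracycline and 663.6 after withdrawal. No label names the species of the introduced gene, so that this value does not check the induction.

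Start regions are shown for 4 genes on which the results below turn: the paralogues Rpl22 and Rpl22l1, whose changes had opposite signs, and Rps18 and Rpl41, whose probe sets were among the brightest. The RefSeq windows (GRCm38.p6) are shown for the 100 bases before and the first 20 bases from each annotated start. Capitals mark any of 4 words on either strand: CGGAAG, the core of the motif of ETS factors; TATAAA, the TATA box; AAGATGG, the core of the YY1 motif; and CTTTCC, an oligopyrimidine stretch. No word contains another, but neighbouring matches can overlap. Rpl22 has 2 annotated starts, at chr4:152324336-152324455 (+) and chr4:152325626-152325745 (+). Rpl22l1 lies at chr3:28805408-28805527 (+), Rps18 at chr17:33955646-33955765 (-) and Rpl41 at chr10:128549149-128549268 (-).
Rpl22, upstream start: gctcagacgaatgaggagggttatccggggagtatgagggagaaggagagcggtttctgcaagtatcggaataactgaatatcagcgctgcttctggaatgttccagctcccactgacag
Rpl22, downstream start: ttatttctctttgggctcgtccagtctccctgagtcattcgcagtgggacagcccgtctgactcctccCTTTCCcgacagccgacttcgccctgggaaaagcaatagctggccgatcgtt
Rpl22l1: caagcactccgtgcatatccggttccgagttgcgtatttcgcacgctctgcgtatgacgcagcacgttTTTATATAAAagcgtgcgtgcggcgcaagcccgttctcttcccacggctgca
Rps18: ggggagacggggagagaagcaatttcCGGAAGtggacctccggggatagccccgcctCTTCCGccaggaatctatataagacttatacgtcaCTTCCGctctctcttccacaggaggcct
Rpl41: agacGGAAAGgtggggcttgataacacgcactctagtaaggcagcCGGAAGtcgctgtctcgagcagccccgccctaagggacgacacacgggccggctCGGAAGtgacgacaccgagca

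In the Rpl22l1 stretch the capitals hold TATAAA on both strands, overlapping. Rps18 holds CGGAAG 3 times, and its annotated transcript begins with a run of pyrimidines. Rpl41 holds CGGAAG at 2 places, and CTTTCC on the reverse strand. Neither Rpl22 stretch shown has CGGAAG. Full windows (250 bases before to 50 after the start) were found for 35 of the 45 genes, 43 windows in all. CGGAAG stood in 25 of these 43 windows (58.1%) and in 16.9% of all 32851 promoter windows. CTTTCC stood in 16 of the 43 (37.2%) and in 26.6% of all windows. AAGATGG stood in 6 of the 43, beside 6.34% of all, and TATAAA in 6 of the 43, beside 13.6% of all. These shares describe letters only, and windows of 1 gene can overlap.

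Most ribosomal protein probe sets lay at the top of the intensity range on every array. On the first type the median member stood at percentile 98.9 of all probe sets in both conditions, and on the MB type at 99.6 with tetracycline and 99.5 after withdrawal. Of the 50 brightest probe sets, 15 were members on each first-type array and 12 on each MB array. Large and small subunit names had similar median percentiles with tetracycline, 98.9 and 98.3 for the first type, and 99.5 and 99.8 for the other. Brightness depends on the probes as well as on the RNA, so that these positions do not order the genes by abundance. The brightest 10% of all probe sets, those with a geometric mean intensity of at least 2807 on the first type and 2908 on the other, held 28 of the 38 members and 15 of the 18. Probe sets outside this 10% are called dim below, which need not mean that they are near the floor.

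**Figure D1:**
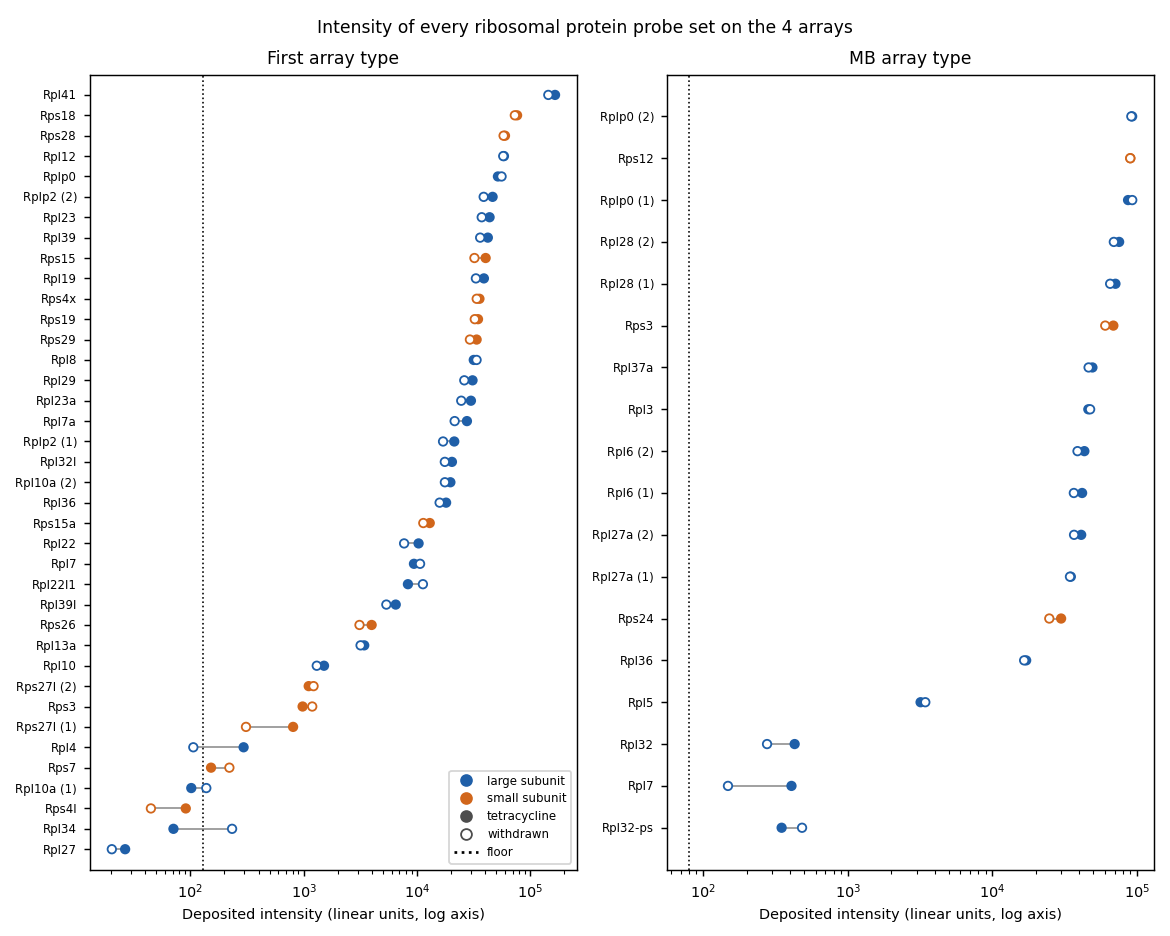
Deposited intensity (log axis) of each of the 38 and 18 member probe sets with tetracycline (filled) and after withdrawal (open), coloured by subunit; the dotted line is the floor of the array type (130 and 80.0). Nearly all pairs of points lie close together, and the widest gaps belong to dim probe sets such as those of Rps27l, Rpl4, Rpl34 and Rpl7 (MB).

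After tetracycline withdrawal the ribosomal protein mRNAs were slightly lower in the deposited scaling, with medians near 0 under quantile normalization and above 0 on the MB type once the trend of change with level was removed. A probe set counted as measured when both intensities exceeded the floor, the 25th percentile of the array type. On the first type 33 of 38 members were measured, and 26 of them were lower to any extent, against 51.1% of all 4402 measured probe sets. Their median change was -0.20, or 0.873 of the tetracycline level, beside -0.012 for all measured probe sets. On the MB type all 18 were measured and 14 were lower, against 47.5% of all 4360, with a median of -0.10 (0.930 of the tetracycline level) beside 0.025. Trimmed-mean and median ratio scaling gave the same directions. With quantile normalization 17 of 33 and 9 of 18 were lower, with medians of -0.016 and -0.022. With the level trend removed 20 of 33 and 7 of 18 were lower, with medians of -0.043 and, reversed on the MB type, 0.054. Both of these scalings were computed from all non-control probe sets, members included, and members are frequent among the brightest. They can therefore take away part of a change that the brightest probe sets share. At the bright end the trend was fitted mostly to less bright probe sets, so the sign of a median near 0 there is uncertain.

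Other bright probe sets were also lower. In the brightest 10%, 24 of 28 members of the first type and 12 of 15 of the MB type were lower (medians -0.20 and -0.088). Bright probe sets without a ribosomal protein symbol were lower in 59.8% and 63.5% of cases (medians -0.078 and -0.084). Members lie at the upper end of this range, where the median of the other probe sets was lower still. At a mean intensity of at least 16384, a limit set after the data were examined, the 21 members of the first type had a median of -0.20 with 19 lower. The 43 probe sets without such a symbol had -0.22, with 88.4% lower. On the MB type the 14 members at this level had a median of -0.10 with 12 lower, and the 108 other probe sets -0.12 with 73.1% lower. Of those with a gene symbol, Rpsa and Fau left out, 27 of 30 were lower on the first type (-0.22) and 47 of 53 on the MB type (-0.22). At this level neither member median was farther from 0 than that of the other probe sets. The part of this level trend in the member values was not tested.

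**Figure D2:**
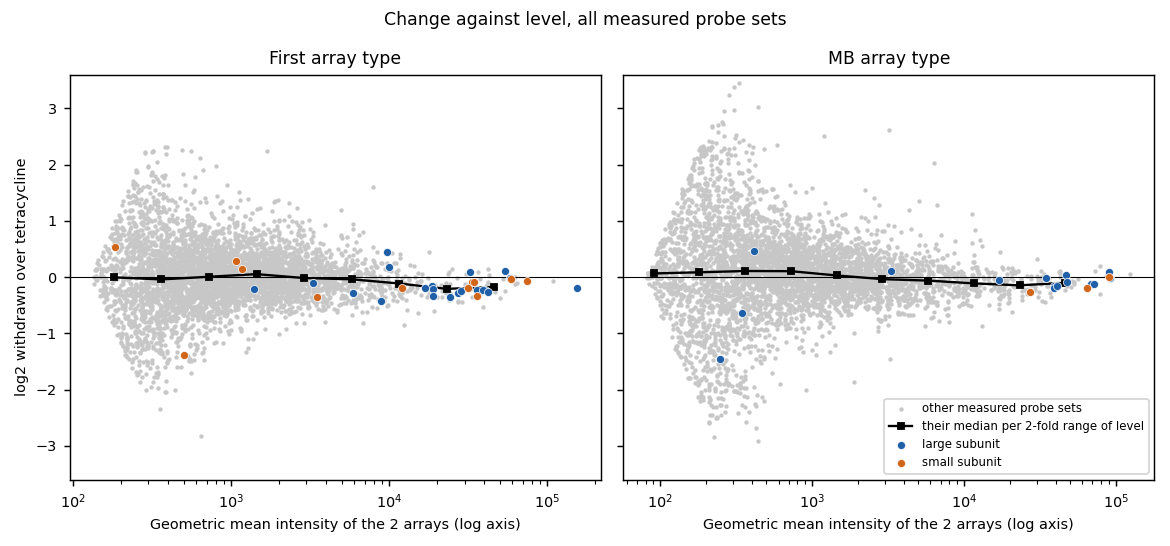
Change (log2 withdrawn over tetracycline) against geometric mean intensity (log axis) for all measured probe sets, with members coloured by subunit and the black line giving the median of the other probe sets in each 2-fold range of level. That line also takes in probe sets with a ribosomal protein symbol among several, and ranges with few probe sets have no point. The 5 MB members from 2^16 to 2^17 lie beyond its end. Bright members within its reach lie about the line, which is below 0 there in the deposited values of both types.

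Changes of 2-fold or more were confined to 2 dim probe sets among the 51 measured. On the first type 1 of 33 members was lower by 2-fold and 0 were higher, beside 4.02% and 4.36% of all measured probe sets. Among MB probe sets, 1 of 18 was lower by 2-fold and 0 were higher, beside 6.65% and 8.46%. The lower one of the first type was a probe set of Rps27l, a p53-inducible paralogue of Rps27, which read 807.2 with tetracycline and 310 after withdrawal (-1.38). A second probe set from the same Rps27l sequence record read 1108.4 and 1223 (0.14), so that the pair gives no common direction for this gene. The lower one of the MB type belonged to Rpl7, a large subunit protein, and read 408.6 and 148.7 (-1.46). The bright Rpl7 probe set of the first type read 9408.7 and 10649.7 (0.18). After withdrawal the MB probe set of Rpl7 was below the control floor of its type, 340.4, which is the 95th percentile of bacterial and yeast control probe sets.

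The spread among bright members was narrow, as was that of other probe sets at the same high level on the first type. In the brightest 10% the changes of members ran from -0.42 to 0.44 on the first type and from -0.27 to 0.11 on the MB type. Their robust SDs (scaled median absolute deviation) were 0.14 and 0.11, beside 0.28 and 0.25 for the other bright probe sets. At a mean intensity of at least 16384 the robust SD was 0.13 for members and for other probe sets of the first type. On the MB type it was 0.12 for members and 0.19 for the others. For 5 genes a pair of bright probe sets shared the same arrays, and the within-pair SD was 0.063. The pairs of Rpl28 differed by 0.00013, those of Rpl6 by 0.032, of Rplp2 by 0.067, of Rplp0 by 0.11 and of Rpl27a by 0.14. This spread measures probe differences only and holds no difference between cultures. Changes of about 0.1, including those of several genes given below, lie within the differences seen between 2 probe sets of 1 gene.

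**Figure D3:**
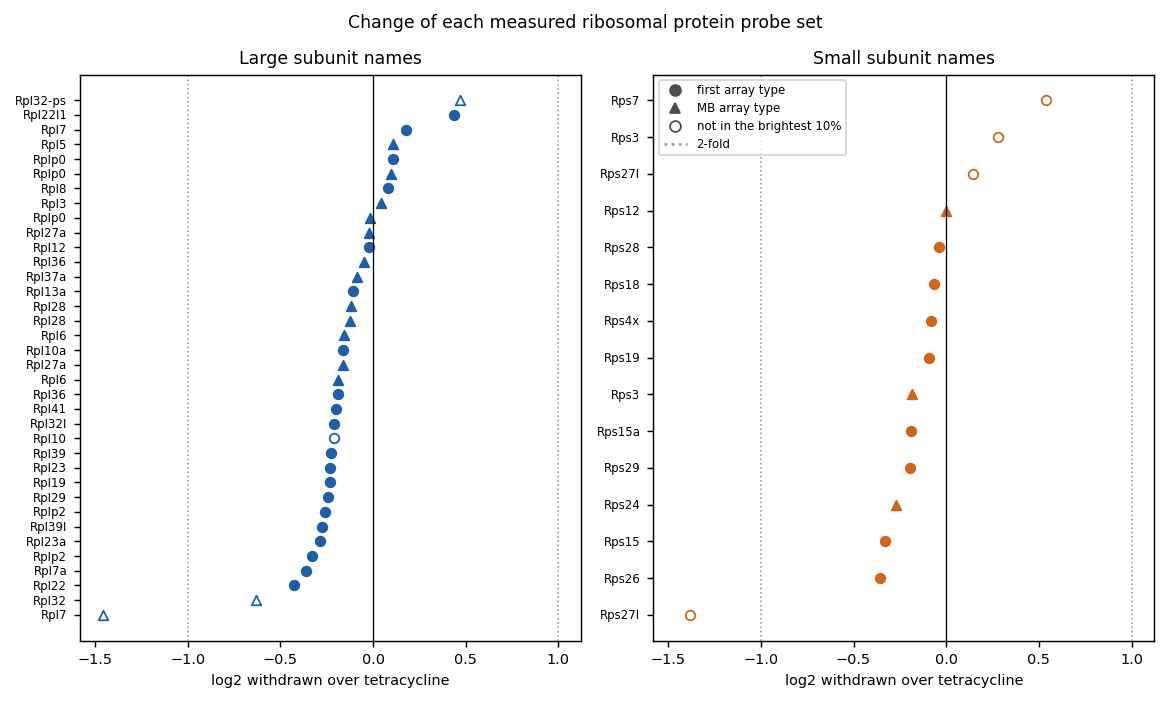
Change (log2 withdrawn over tetracycline) of each measured probe set with a large subunit name (left) and a small subunit name (right), circles for the first array type and triangles for the MB type, open where the probe set is outside the brightest 10%. In the deposited scaling the bright points fall between -0.42 and 0.44, and the 2 points beyond the 2-fold lines, Rpl7 (MB) and Rps27l, are dim.

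Among the large subunit proteins, the stalk recruits the GTPases that drive translation. Rplp0, the stalk base, was higher on 2 of its 3 probe sets, which read 51809.9 and 55770.9 on the first type (0.11) and 86687 and 92638.7 on the MB type (0.096). The third, also on the MB type, read 92516.2 and 91306.9 (-0.019). Rplp2, an acidic stalk protein bound to this base, was lower on both probe sets, from 46482.6 to 38782.9 (-0.26) and from 21334 to 16991.4 (-0.33). Rpl12, at the foot of the stalk, read 58532.8 and 57727.8 (-0.020). The stalk genes thus had changes of different sign, and that of Rpl12 turned positive with median ratio, quantile and trend-removed scaling, as did the list median.

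Of 5 genes for proteins around the exit tunnel, 4 were measured and all 4 were lower, with a median of -0.26 (-0.051 with quantile normalization). Beside this, 59.8% of the other bright probe sets of the first type were lower, and 88.4% of those at 16384 or above, with a median of -0.22. Rpl23a, Rpl19 and Rpl39 lie at that level. Rpl22 is dimmer, in the range from 2^13 to 2^14, where 72.6% of the others were lower (median -0.12). With so few genes, 4 of 4 is not far from these last 2 shares. Rpl22 read 10332 and 7701.2 (-0.42). Rpl23a, the docking point of the signal recognition particle, read 29929.2 and 24587.2 (-0.28). Rpl19 read 38951.9 and 33117.2 (-0.23), and Rpl39, a very short protein inside the tunnel, 42193.9 and 36111.9 (-0.22). All 4 stayed below 0 under each of the 5 scalings, down to -0.027 for Rpl39 with quantile normalization. Rpl4, which lines the tunnel, read 295.3 and 106.3, below the floor after withdrawal. Its bound was at least 2.28-fold lower against the floor but only 1.05-fold against the control floor of 281.5. This Rpl4 probe set is dim, unlike those of the other tunnel proteins.

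The paralogues Rpl22 and Rpl22l1 had the lowest and the highest change of all bright members. Rpl22l1 takes the place of Rpl22 in some ribosomes, and Rpl22 protein is known to repress it. Rpl22l1 read 8322.4 with tetracycline and 11284.2 after withdrawal (0.44), or 1.36-fold, while Rpl22 was at 0.745 of its tetracycline level. The direction held under all 5 scalings for both genes, with -0.34 to -0.42 for Rpl22 and 0.44 to 0.53 for Rpl22l1. Each gene rests on 1 probe set of the first type. Both probe set names carry the suffix f, which marks probes that match a sequence family. How far they separate related sequences was not tested. The pair was picked from the ranking after its values were seen.

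Rpl3 and Rpl8 encode proteins that reach towards the peptidyl transferase centre. Rpl3 read 46054.1 and 47383.1 (0.041, and negative with the median ratio scaling), and Rpl8 31709.9 and 33562.9 (0.082). Rpl10, which joins the large subunit late in its assembly, read 1512.5 and 1305.9 (-0.21). Rpl5, which carries 5S ribosomal RNA and can bind the p53 ligase Mdm2, read 3189.6 and 3438.2 (0.11). Rpl23, another Mdm2-binding protein, read 43721.6 and 37269.6 (-0.23). The list for the 5S particle and Mdm2 binding holds also Rps7 and Rps27l, both on dim probe sets, and the 2 Rps27l probe sets disagree in sign.

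The brightest of all 6523 probe sets on both arrays of the first type belonged to Rpl41, the smallest ribosomal protein, at 165318 and 144205 (-0.20). It kept rank 1, so that quantile normalization put its change at 0. Rpl7a read 27594.2 and 21502.6 (-0.36), the second lowest change of the bright large subunit members. Rpl29 read 30916.9 and 26152.8 (-0.24). Rpl10a, on its bright probe set, read 19717.8 and 17630.6 (-0.16), and Rpl13a, which can also silence inflammatory mRNAs as a free protein, 3424.1 and 3179.9 (-0.11). The 2 Rpl6 probe sets (-0.19 and -0.16), the 2 of Rpl28 (both -0.12), the 2 of Rpl27a (-0.019 and -0.16) and that of Rpl37a (-0.088) were all on the MB type and lower. Rpl36 was lower on both array types, from 18074.6 to 15847.7 (-0.19) on the first and from 17120.1 to 16580.6 (-0.046) on the MB type. Rpl7a, Rpl13a and both Rpl6 probe sets stayed below 0 under all 5 scalings. The decreases of Rpl10a, Rpl41, Rpl28, Rpl27a, Rpl29, Rpl36 and Rpl37a came to 0 or turned positive with quantile normalization or with the trend removed on at least 1 probe set.

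The copies and paralogues had changes of both signs. Rpl32l, a copy of Rpl32, read 20346.3 and 17611 (-0.21). Rpl39l, a paralogue of Rpl39, read 6495.3 and 5368.8 (-0.27). It was -0.27 with quantile normalization and -0.23 with the trend removed, where Rpl39 was at -0.027 and -0.040. On the MB type the Rpl32 probe set read 429.7 and 277 (-0.63), while the pseudogene record Rpl32-ps read 349.3 and 483.5 (0.47). Both are dim, and Rpl32 was below the control floor after withdrawal. Near-identical copies can share signal, and the suffix f in 37 of the 56 probe set names marks probes that match a sequence family. Of these 37, 36 were in the brightest 10%, against 7 of the other 19. Of 8 probe sets with no such suffix letter, 0 were.

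All 11 bright small subunit probe sets were lower in the deposited scaling, and 5 of them under each of the 5 scalings. Of the other bright probe sets 59.8% (first type) and 63.5% (MB) were lower, and 88.4% and 73.1% of those at 16384 or above. On the first type Rps26, which lies at the mRNA exit channel, read 3981.1 and 3110.6 (-0.36). Rps15, in the head of the subunit, read 40361.3 and 32143.6 (-0.33). Rps29 read 33602.1 and 29323.4 (-0.20), and Rps15a 12959.6 and 11373.8 (-0.19). These 4 stayed below 0 under all 5 scalings. Rps19, the gene most often mutated in Diamond-Blackfan anaemia, read 34560 and 32371.7 (-0.094). Rps4x read 35589.9 and 33674 (-0.080), Rps18 76455.5 and 73038.5 (-0.066), and Rps28 59795.2 and 58132.9 (-0.041). The 4 genes with the smaller changes came to 0 or above with quantile normalization and were above 0 with the trend removed.

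Rps24, another gene mutated in Diamond-Blackfan anaemia, read 29858.7 and 24742.2 on the MB type (-0.27, and below 0 under all 5 scalings). Rps3, at the mRNA entry channel, read 68580.6 and 60277.7 there (-0.19, and 0 with quantile normalization), and Rps12 89912.4 and 89715.8 (-0.0032). The 3 dim small subunit probe sets with positive values lay on the first type. There Rps3 read 979.4 and 1190.6 (0.28, at percentiles 70.3 and 73.8), opposite to its bright probe set. Rps7 read 152.4 and 221.2 (0.54, below the control floor on both arrays). The second Rps27l probe set, given above, was at percentiles 73.0 and 74.3. Of the genes linked to Diamond-Blackfan anaemia, 7 of 8 were measured and 5 were lower (median -0.094), with a median of 0 under quantile normalization and 0.079 with the trend removed. Of 8 genes for proteins of the head and mRNA channel, 7 were lower (median -0.080), but 3 with the trend removed, where the median was 0.095. These 2 lists share members, and 50.4% of all measured genes were lower in the deposited scaling.

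Of the 5 members that were not measured, Rpl27 (26.6 and 20.3) and Rps4l (91.2 and 44.9) were below the floor on both arrays. Rpl34 read 71 and 233.7, a bound of at least 1.80-fold higher against the floor, but both values were below the control floor. The second Rpl10a probe set read 102 and 138.4. With Rpl4 these make up all members without a measured change, and each is a dim probe set of the first type.

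The order of the subunits differed between the array types. On the first type the median change was -0.21 over 21 large subunit probe sets and -0.087 over 12 small subunit ones, a difference of -0.12. For the MB type it was -0.088 over 15 and -0.19 over 3, a difference of 0.098 in the other direction. Among bright members the medians were -0.22 (20) and -0.14 (8) on the first type, and -0.067 (12) and -0.19 (3) on the MB type. Removing the level trend left -0.065 and 0.088 on the first type and 0.061 and -0.022 on the MB type. The types carry different genes, 3 small subunit probe sets are few, and with 1 array per condition the differences have no error.

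**Figure D4:**
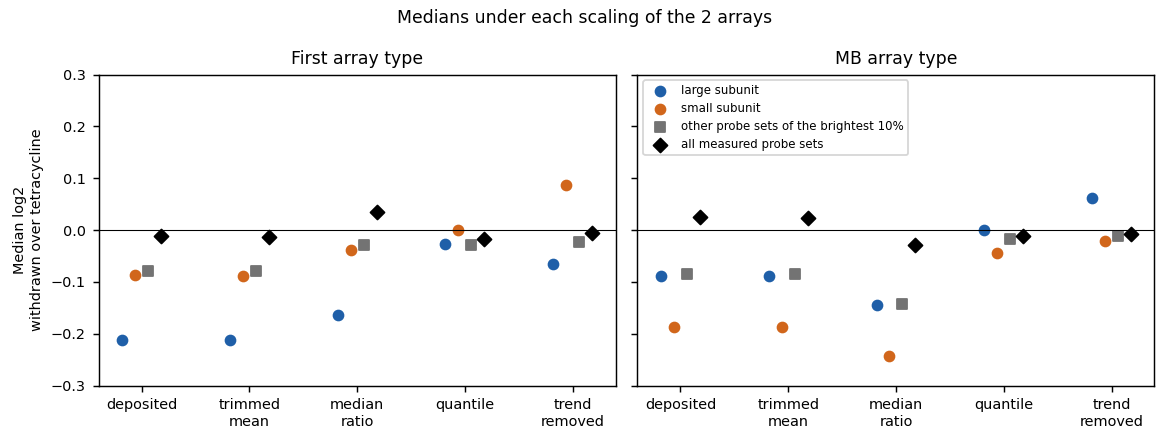
Median change (log2 withdrawn over tetracycline) of large and small subunit members, of the other probe sets of the brightest 10% and of all measured probe sets, under 5 scalings of the 2 arrays of a type. The member medians lie from -0.24 to -0.038 under the first 3 scalings and from -0.065 to 0.088 under quantile and trend-removed scaling, where some are above 0.

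Of the 33 measured members on the first type, 17 stayed lower and 7 stayed higher under all 5 scalings, and 9 did not keep 1 direction. Of the 18 on the MB type, 5 stayed lower, 3 stayed higher and 10 did not keep 1 direction. Among bright probe sets of the first type, Rpl22l1, Rpl7, Rpl8 and Rplp0 stayed higher. Genes on both array types were Rpl7, Rpl36, Rplp0 and Rps3. Comparing bright probe sets only, Rpl36 and Rplp0 allow a check across types, and Rpl36 was lower on both while Rplp0 was higher on the first and split on the MB type.

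Other genes of ribosome production were read at gene level, as the median over measured probe sets of both types. By this measure, in the deposited scaling, 33 of 41 ribosomal protein genes were lower, beside 50.4% of all 4507 measured genes, with a median of -0.17 beside -0.0037. Rpsa and Fau, core small subunit genes whose names fall outside the rule, had -0.27 and -0.24. The list of TOP mRNAs outside the name rule, which holds Rpsa and Fau besides elongation and initiation factors and others, was lower in 15 of 18 genes (median -0.14), with the elongation factor subunit gene Eef1d at -0.62. In that list 11 were lower with quantile normalization and 10 with the trend removed. The long non-coding TOP transcripts Gas5 (0.63) and Snhg1 (1.61), which host small nucleolar RNAs in their introns, were higher. The third gene above 0 was Eef2, an elongation factor, whose bright probe set read 40590.8 and 43450.6 (0.098) and whose dim one read 143.6 and 444.5 (1.63). Gas5 was higher on both of its probe sets, from 9080.7 to 13796.5 and from 10164.2 to 16093.8.

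Mitochondrial ribosomal proteins, which serve the separate ribosomes of mitochondria, were lower in 22 of 32 measured genes, with a median of -0.16. Of all measured genes 50.4% were lower. The mitochondrial median was -0.13 to -0.21 under the 5 scalings. The probe sets of this list had a median mean intensity of 964, and 2 of 36 were in the brightest 10%. The lowest genes were Mrpl54 (-0.86) and Mrps11 (-0.71), and the highest were Mrpl3 (0.27) and Mrps31 (0.22). A dim Mrpl54 probe set read 623.5 and 245.6, the latter below the control floor of 281.5, and the other read 850 and 653.8. Ribosome biogenesis factors, which process ribosomal RNA and assemble subunits, were divided, with 18 of 35 lower, near the share of all measured genes. Their median was -0.032 (0.017 with the median ratio scaling). The small subunit processome genes Wdr75 (-1.20) and Imp3 (-1.08) were lowest, and the nucleolar helicase gene Ddx21 and the processome gene Wdr43 were highest (both 0.83). Wdr75 read 386 and 168.3, below the control floor after withdrawal, and Imp3 read 673.1 and 318.5. RNA polymerase I genes were divided too, with 4 of 8 lower, again near the share of all measured genes (median -0.046, and 0.0027 with the median ratio scaling). The subunit gene Polr1e was at -1.06 (522.7 and 250.5, below the control floor after withdrawal). The initiation factor subunit gene Taf1d was at 0.95, and at 0.53 with quantile normalization. Its probe sets were dim, at 281.3 and 388, and at 135.4 and 366.9. Of the kinases listed, Rps6ka3, a ribosomal S6 kinase, had -0.62.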

How the data were processed

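The authors deposited 1 linear intensity per probe set and array for 4 arrays of 2 types, and these deposited intensities are the only values used. The authors' software is not given in the sources used here. The 2% trimmed means of the 2 arrays of a type differed by less than 5% (999.9 and 1000.4, and 997 for both MB arrays), so the deposited scaling was kept. After removal of 61 control probe sets per type, symbols came from the platform annotation, and all 45 member genes matched RefSeq (GRCm38.p6) by Entrez identifier. The floor is the 25th percentile of the pooled intensities of a type. The change is log2 of withdrawn over tetracycline, with no pseudocount and no test. The fold limit is 2. Probe sets with several symbols were not named. Every member is accounted for. Of the ribosome production lists, up to 2 of the largest changes each way are named, besides Gas5, Rpsa and Fau. Marker lists are given by counts and medians, with some genes named.

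The members, lists and limits were chosen with earlier results of these data known, and Rpl32l and Rpl32-ps were put outside the core after the files were read. The counting was checked on simulated arrays with almost no noise and changes set just past the fold limit. That checks the computing steps only and not the counts in these data. Alternatives were 4 scalings (median ratio, 2% trimmed mean, quantile, and removal of the level trend by loess, span 0.4), 4 floors, 1.5-fold and 3-fold limits, genes or the brightest probe set in place of probe sets, and core members only. A last pair of alternatives, bright members only and the probe sets of several symbols added, were chosen after the data were examined. Scripts ran in Python 3.11.15 with statsmodels 0.14.6, scipy 1.17.1, pandas 2.3.3, matplotlib 3.10.9 and numpy 2.4.6.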

Additional observations from a re-analysis of the deposited data

How the results depend on the processing

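Of 132 recomputed values, 111 stayed within 0.1 (medians and differences, on the log2 scale) or within 1.5 times (counts) of the reported one. A limit of 0.1 is about as large as the medians themselves, so that this count does not measure stability. The MB member median counted as unmoved while it went from -0.10 to -0.022 with quantile normalization. Other values could hardly move, such as the subunit difference of the first type, -0.12 under trimmed-mean and median ratio scaling as reported. The scaling moved the main result most, though quantile normalization and trend removal were computed with the members included. The member median of the first type went from -0.20 to -0.016 with quantile normalization and to -0.043 with the level trend removed, and that of the MB type reversed from -0.10 to 0.054 with the trend removed. The number of lower members went from 26 to 17 with quantile normalization on the first type, and from 14 to 9 (quantile) and 7 (trend removed) on the MB type. With the probe sets of several symbols it was 42 of 54 on the first type. The number lower by 2-fold on the first type, 1 as reported, was 2 at the lower floor, 3 with no floor, and 0 without the names outside the core, by gene, with only each gene's brightest probe set, at 3-fold and among bright members. For the other type, also 1, it was 2 at 1.5-fold, and 0 at the higher floor, the control floor, 3-fold and among bright members. Members higher by 2-fold were 1 in place of 0 on the first type at the lower floor and with no floor. With 1 array per condition and type, no array could be left out. No paired analysis was possible because the labels give no replicate numbers and each group holds 1 array.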

Other observations

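Each array type also carries control probe sets for 18S ribosomal RNA, the RNA of the small subunit. The 3' probe set read 655.9 with tetracycline and 177.5 after withdrawal on the first type, and 362.5 and 464.5 on the MB type. The 5' probe set read 44.6 and 22 on the first type and 120.1 and 375.1 on the MB type. The middle probe set read 51.4 and 95.6, and 33.1 and 45.2. The 5' and middle readings of the first type and the middle readings of the MB type were below the floor on at least 1 array. The 3' probe sets, above it on all 4 arrays, had opposite directions on the 2 types. On the first type the 3' reading after withdrawal, 177.5, was below the control floor of 281.5.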
